A study of Rattus norvegicus with 12 samples.

Results

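Pdk4 and Slc2a1 are 2 genes of glucose use, and their expression was followed here in the hippocampus of rats without adrenal glands, with and without corticosterone. The members were chosen by position and selected on their FPKM values in the same corticosterone against vehicle contrast that is described below, so all their values in that contrast are a description and no further test is made on them. The rule takes every assembled gene (a transcribed unit that the authors' software built from the reads) at chr4:30544867-30556615, the rn6 position of Pdk4, or at chr5:138154095-138182858, the rn6 position of Slc2a1. Each interval held 1 assembled gene, so the members are 2 of 58341 assembled genes, at 2 of 25606 loci. No entry of the table carries a gene symbol. The names Pdk4 and Slc2a1 therefore rest on position alone, and the levels at these positions are what was measured.

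The study sequenced hippocampal RNA from 12 male Sprague-Dawley rats of 8 weeks, all adrenalectomized, which removes the main source of circulating glucocorticoid. Of these, 6 received corticosterone, the main glucocorticoid of the rat, at 300 µg/kg and 6 received vehicle, and tissue was taken 1 h later. The treated samples are named cortisone in one label and corticosterone in their titles, and the titles were followed. No unoperated animals are among the samples, so the comparison is between corticosterone and vehicle in adrenalectomized rats. The deposited table gives 1 pooled value per group, so variation among animals could not be measured, and no SD is given. With no symbols, markers of the hippocampus and its cell types could not be looked up. In bulk tissue, more cells of a type and more RNA per cell cannot be told apart.

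Pdk4 encodes pyruvate dehydrogenase kinase 4, a mitochondrial kinase that phosphorylates and inactivates the pyruvate dehydrogenase complex and so limits the entry of glucose carbon into the citric acid cycle. It is known as a gene that fasting and glucocorticoids raise in muscle, heart and liver. Slc2a1 encodes GLUT1, the facilitative glucose transporter that carries glucose across the endothelium of the blood-brain barrier and into astrocytes. The 2 genes thus act at different steps, Slc2a1 at uptake into the tissue and Pdk4 at the choice of fuel in mitochondria.

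The sequences just before the 2 gene starts are shown because both members are higher with corticosterone and the glucocorticoid receptor acts through short DNA motifs. They are the 250 bases before the RefSeq start, 5′ to 3′ on the gene's strand, in the GRCr8 assembly, which is not the build of the expression table. The Pdk4 window is chr4:34568330-34568579 on the minus strand and the Slc2a1 window is chr5:138002272-138002521 on the plus strand. Capitals mark matches to GGGCGG (the GC box), CCAAT (the CCAAT box) or ACGTG (the core of hypoxia and clock elements), on either strand.
Pdk4: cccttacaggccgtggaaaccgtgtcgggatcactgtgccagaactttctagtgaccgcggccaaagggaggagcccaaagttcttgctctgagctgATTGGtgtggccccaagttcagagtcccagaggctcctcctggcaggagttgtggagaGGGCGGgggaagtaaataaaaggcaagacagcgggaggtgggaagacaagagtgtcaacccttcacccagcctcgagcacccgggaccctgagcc
Slc2a1: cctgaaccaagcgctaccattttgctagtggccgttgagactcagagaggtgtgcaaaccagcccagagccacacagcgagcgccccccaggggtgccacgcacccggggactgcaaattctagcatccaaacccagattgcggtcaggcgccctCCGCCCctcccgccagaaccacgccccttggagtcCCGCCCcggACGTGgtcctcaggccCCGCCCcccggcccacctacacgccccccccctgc

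The Pdk4 window holds 1 GC box and 1 CCAAT box, and the Slc2a1 window holds 3 GC boxes and 1 ACGTG core. Among 33469 RefSeq windows of this length, 30.5% hold a GC box, 34.0% a CCAAT box and 16.6% an ACGTG core. TATAAA was in neither window and in 12.9% of all. These 4 motifs were chosen after the sequences were seen. AGAACA, the core that 1 glucocorticoid receptor molecule recognises, was in neither window on either strand, against 17.5% of all windows. The palindrome of 2 such cores facing each other over a spacer of 3 bases was in 4 of the 33469 windows and in neither of these. The FOXO-type motif TGTTTAC (3.21% of windows) and the E-box CACGTG (5.59%) were also in neither. The E-box contains ACGTG, so those 2 motifs overlap. A missing match says only that these letters are not within these 250 bases. Both windows were rich in G and C, 59.2% for Pdk4 and 68.4% for Slc2a1, beside a median of 51.2% over all windows.

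Both loci had the higher value with corticosterone, Pdk4 from a low level by a large factor and Slc2a1 from a high level by a small one. The assembled gene at Pdk4, XLOC_037361, had 1.14 FPKM with vehicle and 4.23 FPKM with corticosterone. FPKM is a fragment count scaled for transcript length and sequencing depth. Comparing levels between genes takes the length of each assembled gene as right, which was not tested. The authors' deposited table lists this as 3.72-fold, 1.90 on the log2 scale, with p = 5e-05 and q = 0.0165 from Cuffdiff. With 1 FPKM added to both values the change was 2.45-fold, 1.29 on the log2 scale, so its size depends on how the low vehicle value is treated. The vehicle level of Pdk4 was low for a tested gene. It lay above 22.0% of the 42839 tested assembled genes, whose median was 2.15 FPKM, and the corticosterone level lay above 72.2% of them.

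The assembled gene at Slc2a1, XLOC_040834, had 18.9 FPKM with vehicle and 23.8 FPKM with corticosterone. The authors' deposited table lists this as 1.26-fold, 0.34 on the log2 scale and an increase of 26.3%, with the same p = 5e-05 and q = 0.0165 from Cuffdiff. Slc2a1 was an abundant transcript in both groups, above 94.3% of tested assembled genes with vehicle and 95.6% with corticosterone. Set side by side, the level of Slc2a1 was 16.6 times that of Pdk4 with vehicle and 5.63 times with corticosterone. In absolute terms the difference was larger at Slc2a1, 4.96 FPKM, than at Pdk4, 3.09 FPKM. Whether the 2 fold changes differ beyond the spread between animals could not be tested with 1 value per group.

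**Figure D1:**
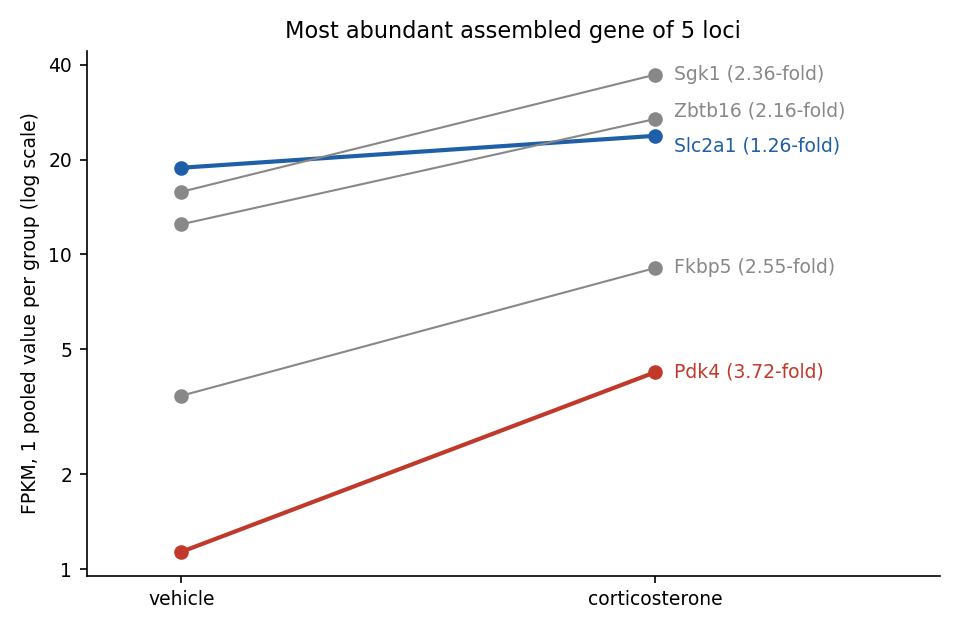
FPKM with vehicle and with corticosterone (vertical log scale, 1 pooled value per group and no error bars) for the most abundant assembled gene at the Pdk4 and Slc2a1 loci and, in grey, at the Fkbp5, Sgk1 and Zbtb16 loci. The Pdk4 line starts lowest, at 1.14 FPKM, and is the steepest of the 5, while the Slc2a1 line starts highest, at 18.9 FPKM, and is the flattest.

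Both of the 2 members were called higher at a q of 0.05 or less, where 0.271% of all tested assembled genes were. Because the members were selected on this contrast, nothing is read from that share. With a change of at least 1.5-fold also required, only Pdk4 of the 2 was called, beside 0.180% of tested assembled genes. The p of 5e-05 is the smallest in the authors' deposited table and is shared by 130 of its 148 calls. The p and q therefore cannot rank the 2 genes.

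Ordered by fold among all 116 assembled genes called higher, Pdk4 ranked 16 and Slc2a1 ranked 111. With each locus represented by its most abundant gene called higher, 93 loci had both values above 0. Among these, Pdk4 ranked 3 by fold and Slc2a1 ranked 88, with 5 loci below it. The place of Pdk4 depends on representing each locus by its most abundant called gene. The largest called folds at Fkbp5 (5.72) and Zbtb16 (5.70) were above that of Pdk4 and do not enter this order. Ordered by the difference in FPKM among all 94 loci called higher, Slc2a1 ranked 11 and Pdk4 27. Single-gene loci like these were 54 of the 94 (57.4%). Of all 25606 loci, those with only untested genes included, 78.3% were single-gene loci. These shares have unlike bases and cannot be compared directly. Only tested genes can be called, and a locus with several genes enters the 94 if any of them is called higher. Among the 53 single-gene loci called higher with both values above 0, Pdk4 ranked 3 and Slc2a1 last.

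**Figure D2:**
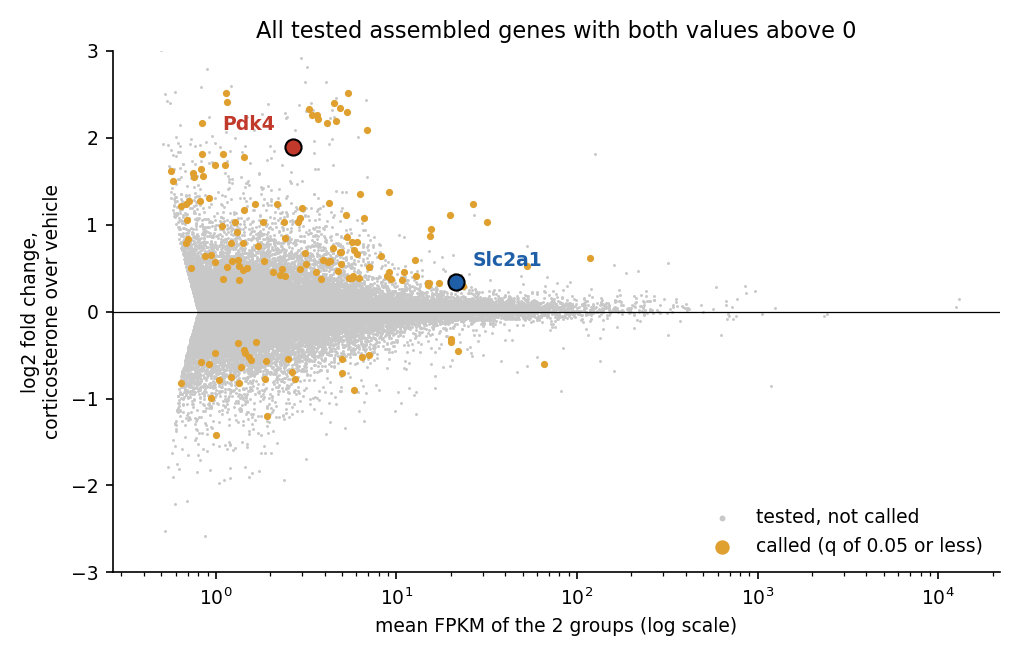
Log2 fold change of corticosterone over vehicle against mean FPKM (log scale) for tested assembled genes with both values above 0. Grey points were not called, orange points had a q of 0.05 or less, and 8 of the 42836 points lie beyond the drawn range of 3 on the log2 scale. Pdk4 lies high at a low mean level, and Slc2a1 lies near the lower edge of the called increases at a high mean level.

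Few other assembled genes at the abundance of either member had a change as large, and not all of those were called. Because the members were selected on this contrast, nothing about them is read from these counts. Of 1149 other tested assembled genes with a mean within 1.25 times that of Slc2a1 (17.1 to 26.7 FPKM), 12 were at least 1.26-fold higher with corticosterone and 12 were lower by at least the same factor. Among those 24, 2 of the higher and 2 of the lower ones were called, and the 10 uncalled higher ones had unadjusted p between 0.00045 and 0.494 in the authors' deposited table. The smallest called increase in this range was 1.22-fold in the authors' deposited table. Over all levels, 3912 of the 42839 tested assembled genes had at least the fold of Slc2a1 and were not called. Around Pdk4 (2.15 to 3.35 FPKM), 11 of 6814 others had at least its 3.72-fold increase, and 1 of these 11 was called, while 1 had a decrease of that factor or more and was not called. Over all levels, 75 tested assembled genes with both values above 0 had at least the fold of Pdk4, itself included, and 15 of them were called. At loci with 1 assembled gene 3 of 8 were called, Pdk4 among them, and at loci with several 12 of 67. Those 67 entries are not separate loci: 30 lie at Zbtb16, 9 of them called, and 7 at Fkbp5, 2 of them called. These ranges of abundance were chosen after the values were seen, and the counts carry no test.

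The assembled genes most like each member, by distance in the plane of the 2 log2 FPKM values, had nearly the same levels but were not called. The 5 nearest to Pdk4 had 1.05 to 1.30 FPKM with vehicle and 3.55 to 4.46 with corticosterone, and their unadjusted p in the authors' deposited table ran from 0.0103 to 0.408. The nearest, XLOC_042512 at chr5:64789461-64803514, had 1.16 and 4.38 FPKM (3.76-fold, q = 0.879 in the authors' deposited table). All 5 lay at loci holding between 2 and 42 assembled genes, 2 of them at the Zbtb16 locus, whereas the Pdk4 locus holds 1. The 5 nearest to Slc2a1 had 18.7 to 19.9 FPKM with vehicle and 22.4 to 24.1 with corticosterone, with unadjusted p from 0.00045 to 0.542. Their folds ran from 1.18 to 1.26 in the authors' deposited table, each smaller than that of Slc2a1. The nearest was a short entry of 371 bases at chr17:87849842-87850212, XLOC_023459, with 19.2 and 24.1 FPKM (unadjusted p = 0.035, q = 0.999 in the authors' deposited table). XLOC_023459 and XLOC_000695 lay at loci with 1 assembled gene, as Slc2a1 does, and the others at loci with 2 to 6. The likeness rests on 2 values per gene, and what sets members and look-alikes apart in p was not tested.

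Beside the most abundant assembled genes at 3 loci of well-known glucocorticoid-induced genes, Pdk4 had the larger fold and the lower level. That order does not hold for every entry of those loci. The most abundant assembled gene at the position of Fkbp5, a co-chaperone that restrains the glucocorticoid receptor, rose from 3.56 to 9.06 FPKM, which the authors' deposited table lists as 2.55-fold. At Sgk1, a serine/threonine kinase that acts on ion channels and transporters, the values were 15.8 and 37.3 FPKM, 2.36-fold. At Zbtb16, a zinc-finger transcription factor, they were 12.5 and 26.9 FPKM, 2.16-fold. Slc2a1 started at a level like that of Sgk1 and gained 4.96 FPKM where Sgk1 gained 21.5 FPKM. These 3 loci hold 11, 21 and 42 assembled genes, of which 8, 13 and 42 were tested and 3, 1 and 10 called. Over the whole series, 148 of 42839 tested assembled genes were called. A fold larger than that of Pdk4 was listed for 7 tested entries at Fkbp5, 2 of them called, for 30 at Zbtb16, 9 of them called, and for 0 at Sgk1. The largest called folds there were 5.72 at Fkbp5 and 5.70 at Zbtb16 in the authors' deposited table. The differences between loci were not tested, since there is 1 value per group.

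The surroundings of the 2 loci differed. No other assembled gene lay within 100 kb of Pdk4, and the nearest ones were 164.7 kb towards lower and 251.0 kb towards higher coordinates. The first, XLOC_037360, had 9.63 FPKM in the vehicle group and 9.97 FPKM in the corticosterone group. The second, XLOC_036910, had 43.4 and 44.5 FPKM. Within 500 kb there were 3 tested assembled genes, none called, with log2 fold changes from 0.04 to 0.09 by the authors' deposited table. None of these came near the log2 fold change of 1.90 at Pdk4.

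Next to Slc2a1, an entry 1.2 kb beyond its higher end also had the higher value with corticosterone. This entry, XLOC_043815 at chr5:138184059-138187621, had 0.65 FPKM with vehicle and 1.02 FPKM with corticosterone. The authors' deposited table lists this as 1.56-fold with an unadjusted p of 0.00135 and q = 0.234, so it was not called. Of the 5 tested assembled genes within 100 kb, 4 had higher and 1 had lower values with corticosterone, with a median log2 fold change of 0.14 by the authors' deposited table and none called. Within 500 kb, 14 of 23 were higher and 9 lower, again with none called. All of these lay towards higher coordinates, and on the other side the nearest entry was 780.9 kb away. The table gives no strand, so whether the adjoining entry is part of the Slc2a1 transcript was not tested.

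**Figure D3:**
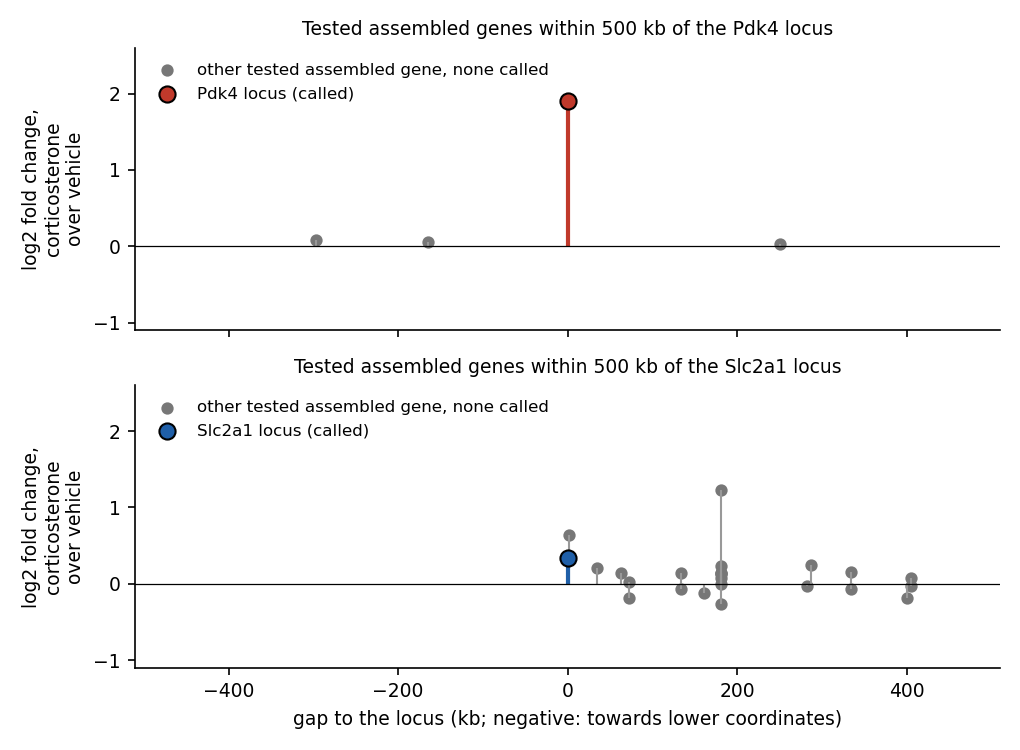
Log2 fold change of corticosterone over vehicle for tested assembled genes within 500 kb of the Pdk4 locus (upper panel) and of the Slc2a1 locus (lower panel), by the gap in kb between each entry and the locus. Grey points, none of them called, stay between 0.04 and 0.09 around Pdk4, while the entry 1.2 kb from Slc2a1 stands at 0.64 and the highest, 181.2 kb away, at 1.23.

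The authors' second list, of 122 assembled transcripts that they marked as different, was matched to loci by identical start and end. Listed transcripts that overlap a locus with other ends were not searched for. Matched in this way, the list holds 1 transcript at the Slc2a1 locus, TCONS_00074962, with the score 999, and none at the Pdk4 locus. Of the 94 loci called higher at the gene level, 60 had such a match in the list and 34 had none. With each locus represented by its most abundant gene called higher, Pdk4 had the largest fold of those 34. The listed loci had a median of 1.72-fold and the unlisted ones 1.42-fold in the authors' deposited table. Both tables come from the same analysis by the authors, so the list is not independent evidence for Slc2a1. Why the Pdk4 locus had no match was not tested.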

How the data were processed

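RNA-seq of 12 hippocampi was deposited by the authors as a Cuffdiff gene table with 1 FPKM value per group and assembled gene, a log2 fold change, p-values and q-values, and as a list of transcripts with a score. Per the submitters' processing notes, Cuffdiff 2.2.1.3, Cufflinks 2.2.1.0, TopHat 0.9 and Bowtie2 0.6 were used, with the build rn5. The table names 106 scaffold entries and 10 Y entries in the rn6 style, so its coordinates, printed as deposited, were read as rn6. For scaling, dispersion model and strand, the settings were not given in the sources used here. Conditions Cort and Control were matched to the titles. Read depth per sample is unknown, so no counting interval is given.

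From the deposited log2 values (Control over Cort) the sign was turned, so that positive means higher with corticosterone. The authors' test statistic is a score that enters no value here, and called means a deposited q of 0.05 or less. The low-value limit was the authors': both members passed it, and untested genes had a mean of at most 0.81 FPKM. No test across animals could be fitted. Python 3.11.15, numpy 2.4.6 and pandas 2.3.3 were used; the Benjamini-Hochberg adjustment and the nearest-gene search were tested on simulated data. Both promoter windows were matched by symbol in RefSeq (GRCr8). Members, lists and comparison loci were chosen with earlier results of these data known. Named genes were all entries of the 2 loci, the 5 most like each, neighbours within 100 kb, and the leading gene at Fkbp5, Sgk1 and Zbtb16. Outside this rule, XLOC_037360 and XLOC_036910, the nearest entries to Pdk4, were named after their values were seen, as were the counts within 500 kb. A glucose use list and cell type marker lists were set up by symbol, matched 0 entries and were not analysed here. Alternatives were pseudocounts, recentring, summing over the locus, other q limits and adjustments, and locus overlap.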

Additional observations from a re-analysis of the deposited data

How the results depend on the processing

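Neither a pseudocount nor another q limit or adjustment can turn the direction of a locus, so the kept directions say nothing about stability. The log2 fold change of Pdk4, 1.90 as deposited, was 1.81 and 1.29 with pseudocounts of 0.1 and 1 FPKM, the latter 2.45-fold in place of 3.72-fold, and that of Slc2a1, 0.34, was 0.34 and 0.32. Recentring on the median of tested genes, 0.007, gave 1.89 and 0.33. A q of 0.01 or less left 0 of the 2 members called, with unchanged log2 fold changes of 1.90 and 0.34, because the smallest q of the whole table is 0.0165; by unadjusted p both stood at 5e-05. A change of at least 1.5 times left 1 called, Pdk4. When only genes averaging 1 FPKM or more were adjusted together, both had a q of 0.0165, and with only the most abundant gene of each locus both had 0.00871. Each locus holds 1 assembled gene that nothing overlaps, so summing or taking medians over the locus, or allowing overlap, repeats the same values and says nothing about stability. No paired analysis was possible because the files hold no value per animal. Neither leave-one-out fits nor count models could be run on such a table. Without the depth of each library, the precision of the low vehicle value of Pdk4 cannot be bounded.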
